A study of Mus musculus with 4 samples.

Results

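The purine salvage genes described here were Pnp2, Pnp, Ada, Hprt, Aprt, Dck, Dguok and Adk, 8 of the 49997 genes of the RefSeq gene table used. Open chromatin at each gene was read from ATAC-Seq peaks that overlapped the gene body or 5000 bp on either side of it. Overlapping peaks of the 4 lists (at least 1 bp) were merged into regions, and 97 of the 337776 regions of the series lay at these genes. In ATAC-Seq a transposase inserts adapters where DNA is accessible, and a peak marks a stretch of open chromatin. The study asked how loss of Cpt1a, the enzyme that hands long-chain fatty acids to mitochondria for oxidation, changes chromatin in blood stem cells. Control mice carried Cpt1a fl/fl alleles without Cre, and KO mice carried the same floxed alleles with Vav1-Cre, which deletes the gene in all blood lineages and not in stem cells alone. All were untreated adult mice on a C57BL/6 background, and each genotype gave 2 libraries of sorted bone marrow cells, which the labels call ltHSC and the study's text calls HSPCs. No source used here says whether the 2 libraries of a genotype came from separate animals, so their spread may be technical.

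Cells make purine nucleotides from small precursors (de novo synthesis) or rebuild them from free bases and nucleosides (salvage). Purine nucleoside phosphorylase splits inosine and guanosine into a base and a ribose phosphate, and in the mouse it is encoded by tandem copies, Pnp and Pnp2. Adenosine deaminase (Ada) acts just before it, phosphoribosyltransferases (Hprt, Aprt) turn the bases back into nucleotides, and kinases (Dck, Dguok, Adk) do the same for whole nucleosides. In humans, loss of the phosphorylase or of the deaminase causes immune deficiency, and T cells are the most sensitive to it.

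The 4 peak lists held 240940 to 277594 summits. KO 2 had the fewest, and 35.1% of its summits had a −log10 q of 5 or more, against 40.5% to 46.8% in the other lists. The lists gave no read counts, so the depth behind each is unknown and no counting interval or floor can be stated. Each region therefore received a percentile within its own library: the share of that library's regions whose highest −log10 p was at or below its own, with 0 for no peak. Many weak peaks have equal values, the commonest −log10 p being shared by 5.09% to 9.74% of a library's regions, so low percentiles are coarse. Start regions were held at 8 of 8 stem cell marker genes in every library, against 3 or 4 of 7 T cell, 3 or 4 of 5 B cell, 2 or 3 of 5 erythroid, 4 or 5 of 6 neutrophil and monocyte and 3 of 3 platelet lineage marker genes, and those of Cd3d, Cd3e, Cd8a, Ms4a1, Klf1 and Ly6g were at 0 throughout. The median percentile of the markers that had a start region overlapped between genotypes for stem cells (92.4 and 88.1 in control, 92.6 and 89.0 in KO) and T cells (73.1 and 65.5 in control, 62.3 and 68.1 in KO). It was higher in KO for B cell markers (43.3 and 47.6 in control, 56.5 in both KO libraries) and higher in control for neutrophil and monocyte markers (67.3 and 70.1 in control, 59.8 and 63.1 in KO). The part of any such cells in the results was not tested. At the targeted gene, Cpt1a, the start region had percentiles of 94.7 and 93.7 in control and 94.7 and 95.6 in KO, and this peak checks nothing about the deletion of exons inside the gene.

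Of the 8 genes, 7 had promoter entries in RefSeq (GRCm38.p6, the build named mm10 in the notes), and 3 of them are printed as the 250 bases before the start, on the strand of the gene. Pnp is shown as the tandem copy whose start held a peak in all libraries, Ada as the weakest start of the other genes, and Dck as the start with the largest difference toward KO. Capitals mark every match to 3 motifs, each searched on both strands, and matches may overlap. The first motif is the GC box, spelled GGGCGG, the second is the CCAAT box, and the last is the core of a site for ETS transcription factors, spelled CCGGAA.
Pnp (chr14:50944053-50944302, plus strand): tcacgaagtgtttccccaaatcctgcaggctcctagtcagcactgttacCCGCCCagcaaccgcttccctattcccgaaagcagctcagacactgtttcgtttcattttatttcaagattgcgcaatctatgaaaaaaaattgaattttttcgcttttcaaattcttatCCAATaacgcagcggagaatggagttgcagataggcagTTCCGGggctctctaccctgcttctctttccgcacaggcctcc
Ada (chr2:163750240-163750489, minus strand): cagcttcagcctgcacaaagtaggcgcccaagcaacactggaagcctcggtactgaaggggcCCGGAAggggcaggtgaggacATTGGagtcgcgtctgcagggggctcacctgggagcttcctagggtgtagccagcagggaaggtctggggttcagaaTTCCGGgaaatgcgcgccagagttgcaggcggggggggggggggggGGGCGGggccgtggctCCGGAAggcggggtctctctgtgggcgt
Dck (chr5:88764763-88765012, plus strand): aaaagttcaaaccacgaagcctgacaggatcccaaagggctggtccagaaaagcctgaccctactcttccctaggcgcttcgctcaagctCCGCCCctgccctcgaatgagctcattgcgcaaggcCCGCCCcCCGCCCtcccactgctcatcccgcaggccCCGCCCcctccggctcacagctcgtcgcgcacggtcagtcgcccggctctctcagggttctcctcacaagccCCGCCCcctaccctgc
Pnp had 1 match to each of the 3 motifs, Ada had 1 GC box, 1 CCAAT box and 3 ETS cores, and Dck had 5 GC boxes and none of the other motifs. Over all 32851 promoters of the table, 32.7% held a GC box, 33.8% a CCAAT box and 12% an ETS core in the same 250 bases. The Pnp promoter was 46.8% GC, and 31.1% of all promoters were at or below that value, whereas Ada reached 67.2% and Dck 66%. Between 11 and 24 CpG dinucleotides lay in each promoter of the 7 genes, above the median of 6 over all promoters. A match describes letters only.

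At Pnp2, both control libraries had a strong peak over the first base of the gene body. The region around it had only a weak peak in KO 1, just inside the body, and none in KO 2. Pnp2 lies on chromosome 14 from 50956141 to 50964751. The table gives no strand for it, so both ends of its body were searched for a start region (any region within 500 bp of a start), and the region found ran from 50955614 to 50956690. Its percentile was 86.0 in control 1, 83.7 in control 2, 54.1 in KO 1 and 0 in KO 2. Both control values lay above both KO values, and KO 2 had no peak. KO 2 was also the list with the fewest summits, and the part of list strength in this value was not tested. The highest −log10 p was 27.4 and 28.7 in control and 4.95 in KO 1, and the authors' fold over background was 9.04 and 8.88 in control and 3.58 in KO 1. The peak also differed in breadth: it covered 916 and 1018 bp in control, with 4 and 5 summits, but 215 bp in KO 1, with 2 summits. The KO 1 peak ran from 50956279 to 50956493. It did not reach the first base of the gene, and it belonged to the region by its overlap with the control peaks. The mean percentile was 84.8 ± 1.63 in control and 27.1 ± 38.3 in KO (SD, n = 2 each), a KO minus control difference of −57.8 points. The study shows Pnp2 as an example of lost accessibility, so these values are a description of a gene chosen for its pattern. An exact two-sided permutation test of 2 against 2 libraries gave p = 0.333, the smallest it allows. The difference was −84.9 without KO 1 and −30.6 without KO 2. In pooled cells, fewer cells with an open site and less opening in each cell cannot be told apart.

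Pnp2 stood at the low end of all genes. Across the 15096 genes with a start region in at least 2 libraries, 5% had a KO minus control difference below −9.96 points and 1% below −33.1, and 6 genes, with Pnp2 among them, had one at least as low as that of Pnp2. A −log10 q of 5 or more was reached in both controls by 12996 start regions, of which 1.34% were under 5 in both KO libraries, as Pnp2 was, and 0.131% had no peak in KO 2. Of 56425 regions of any kind, gene starts included, that passed 5 in both controls, 7.93% were under 5 in both KO libraries. No peak in KO 2 was found for 1.31% of them, and none in KO 1 for 0.594%. Both sets were picked for high control values, and the reverse sets were not counted. With summits of a −log10 q of 5 or more, 38.2% of all regions ranked higher in control and 5.99% in KO.

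A further region inside the Pnp2 body, from 50958662 to 50959028 and 2521 bp from its first base, had the reverse pattern. It had no peak in either control, and percentiles of 59.0 in KO 1 and 45.4 in KO 2. These KO peaks were weak, with a fold of 3.91 and 3.26, and neither reached a −log10 q of 5. The gene thus had 1 region ranked higher in control and 1 held only in KO.

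Pnp, the neighbouring copy, did not share the Pnp2 pattern at its start. Pnp lies on chromosome 14 from 50944303 to 50953412 on the plus strand, and its start region ran from 50943868 to 50944910, where the noncoding RNA gene Gm52117 is also annotated. The percentile of this region was 98.9 in control 1, 98.7 in control 2, 99.1 in KO 1 and 98.1 in KO 2. The genotypes overlapped, and KO 2 was lowest. The strongest summit stood 193, 203, 199 and 193 bp downstream of the start in the same order of libraries, and the peak covered 1043, 939, 929 and 861 bp. The KO minus control difference was −0.148 points (exact permutation p = 1). The only other region counted for Pnp was the Pnp2 start region itself, which lies within 5000 bp of the end of Pnp and was counted once in the totals. The percentile of Pnp exceeded that of Pnp2 by 12.9 points in control 1, 14.97 in control 2, 45.0 in KO 1 and 98.1 in KO 2. How the authors treated reads that match both copies is not given in the sources used here, and its part in these values was not tested.

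**Figure D1:**
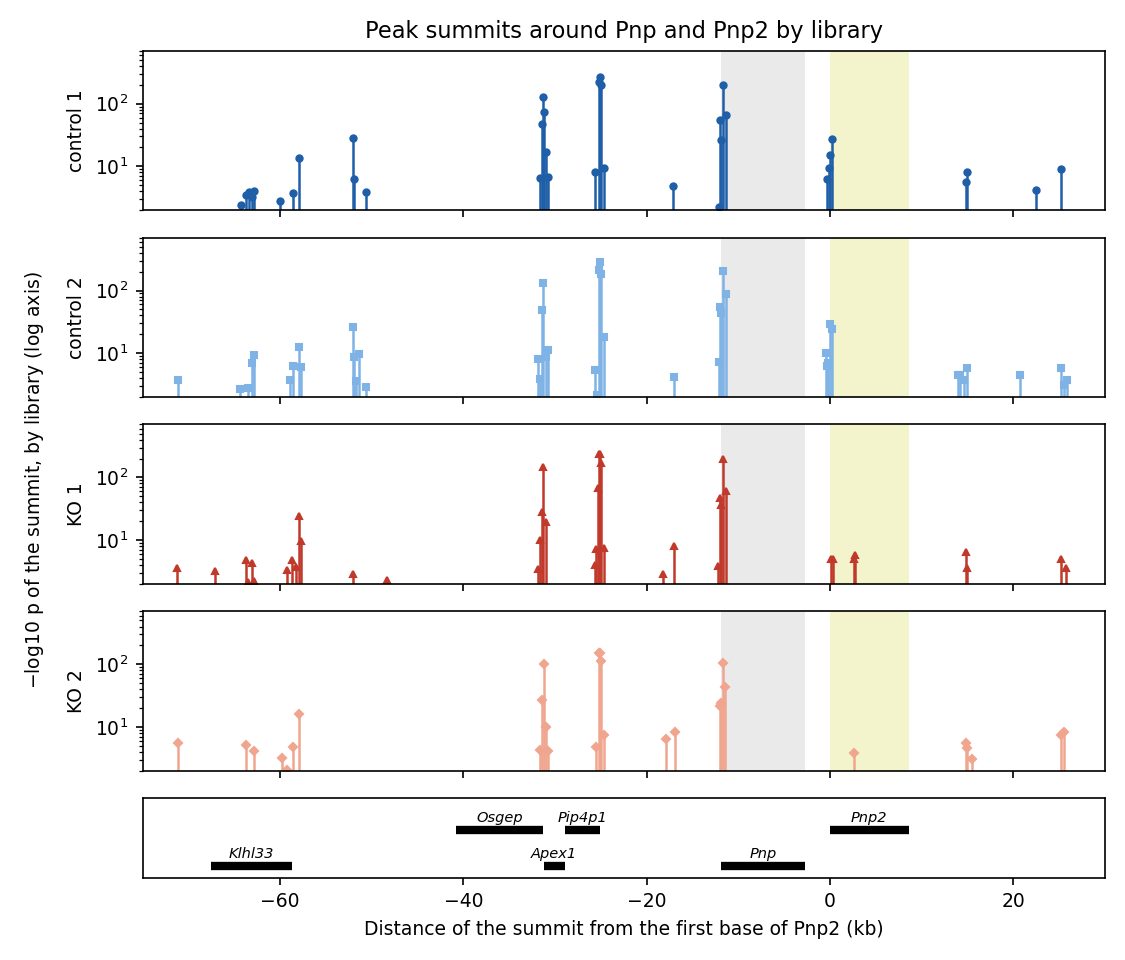
Peak summits from 75 kb before to 30 kb after the first base of Pnp2, with a panel for each library; the x axis is distance in kb, the y axis is the −log10 p of the summit on a log scale, and the grey and yellow bands are the Pnp and Pnp2 bodies. Summits at Pnp, Pip4p1 and Osgep/Apex1 stand in all 4 panels, whereas the cluster near the first base of Pnp2 is tall in both controls, low in KO 1 and missing in KO 2.

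Among the other regions within 100000 bp of the Pnp and Pnp2 bodies, 2 had the pattern of the Pnp2 start. This pattern was a peak in both controls, a peak of lower percentile in KO 1 and none in KO 2. It was taken from Pnp2 itself, and its share over all regions of the series was not counted, so the 2 regions are only described. One of them, from 50903945 to 50904564 and outside any gene of the table, had percentiles of 86.1 and 82.2 in control, 22.2 in KO 1 and 0 in KO 2. The other, from 50865109 to 50865289 inside Tep1, had percentiles of 64.3 and 57.8 in control, 35.5 in KO 1 and 0 in KO 2. In both regions every control value lay above every KO value. The neighbourhood held 63 regions, of which 30 had a peak in at least 2 libraries. Ranked higher in control were 6 of the 30, against 19.7% of such regions in the series, and ranked higher in KO were 10, against 16.9%. Of the 30, 1 was held only in control (50905409 to 50905756, with percentiles of 38.7 and 12.6), against 6.05% in the series, and 3 only in KO, against 3.47%, the inner Pnp2 region among them. The median KO minus control difference was 1.00 points over the 30. Osgep and Apex1, which encode a tRNA-modifying enzyme and a DNA repair nuclease and share a start region, had percentiles of 97.0 and 96.6 in control and 97.8 and 97.9 in KO. Pip4p1, a lipid phosphatase gene, had 99.8 and 99.9 in control and 99.7 and 99.6 in KO, and the start region shared by Tep1 and Gm26782 had 96.3 and 96.0 in control and 96.7 and 93.9 in KO. The strong start regions near Pnp2 were thus held at a high rank in all 4 libraries. The start of Klhl33 had percentiles of 75.5 and 69.3 in control and 85.1 and 83.4 in KO, both KO values being higher. Beyond Pnp2, the ribonuclease genes Rnase10 and Rnase12 had weaker start regions, the former with 53.3 and 60.4 in control and 67.8 and 62.2 in KO, the latter with 74.4 and 67.5 in control and 59.0 and 64.5 in KO. Rnase9 had 23.5 in control 1, 62.2 in KO 2 and no peak in control 2 or KO 1. Only control 1 had a start peak at Rnase11 (23.5) and at the pseudogene Gm8518 (46.8). The tRNA gene n-TLaag8 had 97.5 and 96.7 in control and 96.0 and 97.7 in KO. No start region was found for Gm52088.

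Ada, which removes the amino group of adenosine and deoxyadenosine, had a start peak of similar control rank to that of Pnp2 but held it in all libraries. Ada lies on chromosome 2 from 163726571 to 163750239 on the minus strand, and the percentile of its start region (163749666 to 163750890) was 85.7 in control 1, 82.1 in control 2, 89.5 in KO 1 and 78.6 in KO 2. The KO libraries held the highest and the lowest value, and the difference of means was 0.161 points. Inside the gene, a region from 163735772 to 163736428 was the strongest of the locus, with percentiles of 93.0 and 92.7 in control and 92.4 and 83.3 in KO. Its fold was 13.4 and 14.2 in control and 12.4 and 6.98 in KO. On both measures KO 2 stood well below the other libraries. KO 1 lay within 1 percentile point of both controls, and its fold was below both of theirs. A weaker region from 163743129 to 163743659 had percentiles of 64.8 and 55.8 in control and 49.5 and 36.3 in KO. Both regions ranked higher in control without overlap, and the other 5 of the 7 Ada regions held by at least 2 libraries overlapped between genotypes.

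The phosphoribosyltransferases differed by less than 1 point at their starts, in opposite directions. Hprt, which turns hypoxanthine and guanine into nucleotides, lies on chromosome X from 52988078 to 53021660, and its start region had percentiles of 96.0 in control 1, 96.3 in control 2, 96.9 in KO 1 and 97.1 in KO 2. Both KO values were higher, with a KO minus control difference of 0.860 points. The mice of the study were of both sexes and the labels give none for a library. The 4 lists had 59 to 68 summits on chromosome Y and 1.497% to 1.60% of their summits on chromosome X, and the part of sex in the Hprt values was not tested. Inside Hprt, a region from 53001051 to 53001188 was held only in KO, with percentiles of 22.2 and 14.7. The strongest region away from the start (53006132 to 53006377) had percentiles of 80.4 and 82.0 in control and 81.3 and 74.4 in KO, which overlapped.

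Aprt, which does the same for adenine, is the shortest of the 8 genes (chromosome 8, 122574637 to 122576907) and had a single region, at its start (122576283 to 122577352). Its percentile was 95.7 in control 1, 95.6 in control 2 and 94.9 in both KO libraries. The groups did not overlap, and the KO minus control difference was −0.705 points. No region lay at Aprt-ps, its pseudogene.

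The strongest start region of each nucleoside kinase had a percentile of 98.5 or more in every library, with differences of less than 1 point in either direction. Dck, which phosphorylates deoxycytidine, deoxyadenosine and deoxyguanosine in the cytosol (chromosome 5, 88765013 to 88783277), had start percentiles of 98.5 in control 1, 98.7 in control 2, 99.7 in KO 1 and 99.4 in KO 2. Both KO values were higher, with a difference of 0.946 points, the largest toward KO among the 8 start regions. Dck also had a region from 88766947 to 88767247, 1934 bp inside the gene, that was held only in control, with percentiles of 69.0 and 32.4. The start and the inner region of Dck thus ranked in opposite directions.

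Dguok, the mitochondrial deoxyguanosine kinase (chromosome 6, 83480214 to 83506969), had start percentiles of 99.8 in control 1, 99.4 in control 2, 99.2 in KO 1 and 99.4 in KO 2. Control 2 and KO 2 were nearly equal (99.361 and 99.353), and the difference of means was −0.303 points. A region inside Dguok from 83482113 to 83483090 had percentiles of 86.6 and 85.2 in control and 79.7 and 83.5 in KO, without overlap.

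Adk, which returns adenosine to AMP, is the longest member (395996 bp on chromosome 14, from 21052574) and held 57 of the 97 regions. Its start region (21051732 to 21053049) was the highest ranked of all members in both controls, with percentiles of 99.95 and 99.92, and had 99.55 and 99.48 in KO. Both control values were higher, with a difference of −0.418 points. A second annotated start of Adk had a region with percentiles of 98.1 in control 1, 96.8 in control 2 and 96.9 in both KO libraries, which overlapped. Within the body, 2 regions were held only in control, the first (21192885 to 21193018) with percentiles of 36.1 and 46.0, the second (21369183 to 21369326) with 46.8 and 46.0. A further 2 were held only in KO, at 21119792 to 21119878 with percentiles of 22.2 and 30.4 and at 21120598 to 21120819 with 62.6 and 14.7. These 4 regions were weak, and each lay at least 43640 bp from an Adk start. Of the 24 Adk regions held by at least 2 libraries, 9 ranked higher in control, against 19.7% of all such regions in the series, and 5 in KO, against 16.9%. The strongest of these away from a start (21137000 to 21137201) had percentiles of 84.3 and 79.8 in control and 90.4 and 86.0 in KO, both KO values being higher. The largest gap of a region held by all 4 libraries was at 21433423 to 21433740, with percentiles of 64.3 and 50.9 in control and 22.2 and 30.4 in KO. Also higher in control were the regions at 21101579 (46.8 and 57.8 in control, 22.2 and 45.4 in KO), 21115875 (78.5 and 75.1 in control, 71.7 and 74.4 in KO) and 21299680 (64.3 and 62.8 in control, 59.0 and 62.2 in KO). The regions at 21219369 and 21434051 had the same percentiles, 23.5 and 29.9 in control, none in KO 1 and 14.7 in KO 2. Also higher in KO were those at 21069707 (66.7 and 62.8 in control, 67.8 and 80.8 in KO) and 21280582 (23.5 and none in control, 35.5 and 30.4 in KO). Gaps between the genotypes in these inner regions were often narrow, as at 21115875, where control 2 stood less than 1 point above KO 2.

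**Figure D2:**
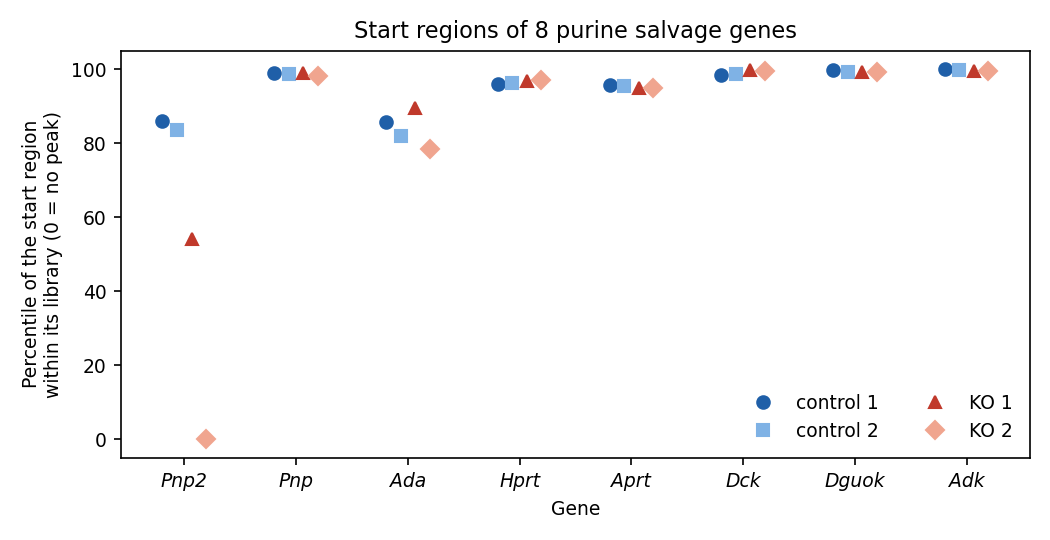
Percentile of the start region of each of the 8 genes within its library, from 0 (no peak) to 100, with 1 point for each of 2 control and 2 KO libraries. Pnp2 alone of the 8 shows a wide gap between genotypes, Ada is spread by library without a gap, and the other 6 lie between 94.9 and 99.95.

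In order of their mean control percentile, the start regions ran Adk, Dguok, Pnp, Dck, Hprt, Aprt, Pnp2 and Ada. Dguok, Pnp and Dck were close, although the 2 control values of Dguok stood above those of both others, while those of Pnp and Dck overlapped. The values of Pnp2 and Ada also overlapped in control. In KO, both values of Ada lay above both values of Pnp2. Of the 8 start regions, 4 ranked higher in control, against 14.6% of the start regions of all genes, and 2 ranked higher in KO, against 19.8%. None was held only in control, against 0.841% of all start regions, and none only in KO, against 0.517%. Apart from Pnp2, the members' differences lay between −0.705 and 0.946 points, well inside the range of −9.96 to 10.2 that holds the middle 90% of all genes.

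The tandem pair was compared with the other 6 genes by taking, in each library, the mean start percentile of Pnp2 and Pnp minus that of the 6. This value was −3.53 in control 1, −4.17 in control 2, −20.0 in KO 1 and −45.8 in KO 2. Both KO values were below both control values, and KO 2 was the lower. The KO minus control difference was −29.1 points (means of −3.85 ± 0.449 in control and −32.9 ± 18.2 in KO, SD, n = 2 each, exact two-sided permutation p = 0.333, the smallest possible). It was −41.9 without KO 1 and −16.1 without KO 2. The Pnp2 copy carried the difference, since the mean of the other 6 genes was 96.0 and 95.3 in control and 96.6 and 94.8 in KO, and Pnp itself moved by −0.148 points. As Pnp2 was chosen for its pattern, this is a description too.

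Over all regions of the 8 genes, the shares held in all libraries and only in control were near those of the series, and the share held only in KO, 4 regions, was above it. Of the 97 regions, 49 had a peak in at least 2 libraries and 28 of these (57.1%) had one in all 4, against 58.4% of all such regions. Held only in control were 3 of the 49 (6.12%), against 6.05% of the 137553 regions of the series with a peak in at least 2 libraries. Held only in KO were 4 (8.16%), against 3.47%. All of the 7 were in Pnp2, Hprt, Dck or Adk, and none was a start region. The 48 remaining regions were seen in 1 library only, 15 of them in control 1, 7 in control 2, 10 in KO 1 and 16 in KO 2. Of all regions of the series seen in 1 library, 26.9% were in control 1 and 17.9% in control 2. KO 1 had 27.3% of them and KO 2 had 27.9%.

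More of the 49 regions ranked higher in control than in KO, but not when the lists were trimmed to the length of the shortest. Ranked higher in control were 16 (32.7%), against 19.7% in the series, and ranked higher in KO were 9 (18.4%), against 16.9%. The median KO minus control difference was −1.34 points over the 49 regions and −0.176 over all. With the lists trimmed in this way, 8 of 48 regions ranked higher in control and 11 in KO, against 14.2% and 24.8% of all regions. With the 100000 strongest summits of each library, 7 of 22 regions ranked higher in control and 4 in KO, against 17.7% and 21.6% of all regions. Of the 16 regions, 9 were in Adk, and the rest were spread over Pnp2, Ada, Aprt, Dck and Dguok.

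**Figure D3:**
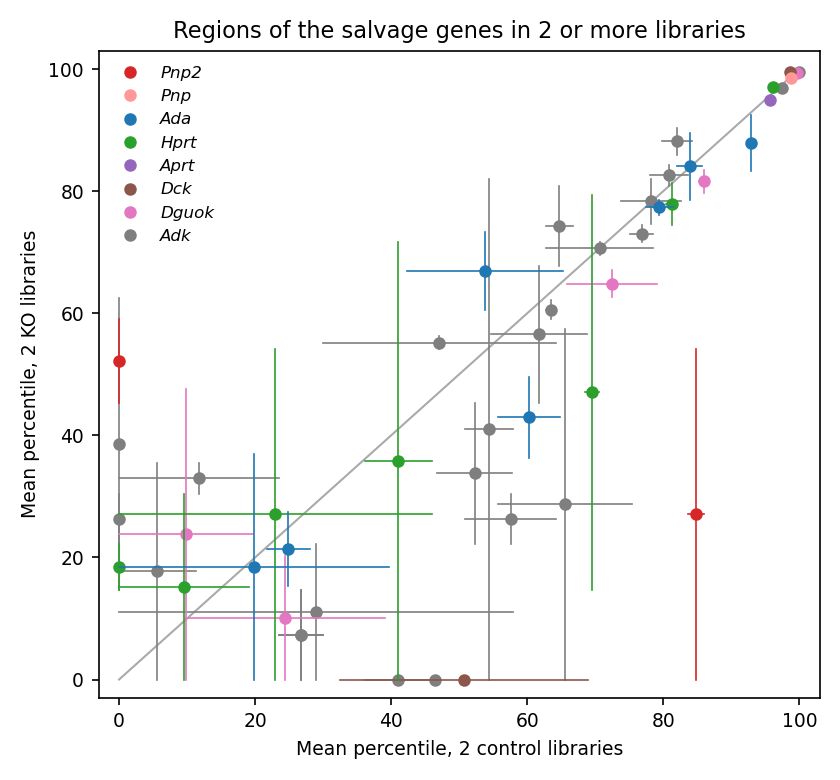
Mean percentile of each region of the salvage genes with a peak in at least 2 libraries, in control (x axis) and KO (y axis), coloured by gene; bars span the 2 libraries of a genotype and the grey line marks equality. The start regions other than those of Pnp2 and Ada crowd at the upper right, the Pnp2 start lies far below the line at 84.8 in control, and the inner Pnp2 region lies on the left edge at 0 in control.

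Most genes of the rest of purine and pyrimidine metabolism had start regions with small differences, in both directions, the exceptions being Ampd1 and Slc28a3. Ends of the gene body stood in for the start where the table gives no strand (Pfas, Xdh, Ampd1, Slc43a3, Adora2a). The list of de novo purine synthesis also held Gmpr and Gmpr2, which belong to interconversion. Its 15 genes all had a start peak in every library, with a median difference of 0.161 points. Of these, 2 ranked higher in control (14.6% of all genes) and 4 in KO (19.8% of all genes). Those higher in control were Gmpr, which turns GMP back into IMP (−2.64), and Pfas, an enzyme of the middle of the pathway (−1.36), and of the 4 that ranked higher in KO without overlap, the largest differences were those of Adssl1 (0.618), Impdh1 (0.489) and Atic (0.222). Among 17 genes of purine breakdown and interconversion with a start region, of 19 listed, 3 ranked higher in control and 4 in KO, against the same 14.6% and 19.8%, with a median difference of 0.544. Ampd1, an AMP deaminase, had percentiles of 47.3 and 51.9 in control, none in KO 1 and 45.6 in KO 2, a difference of −26.8 in which KO 2 lay close to control 1. Xdh, which makes uric acid, had a difference of −4.56 and Ampd2 one of −1.79. Toward KO, the 5′-nucleotidase Nt5c1a had 9.25, the AMP deaminase Ampd3 7.68 and the guanine deaminase Gda 4.61.

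Among 8 nucleoside and base transporters, 1 ranked higher in control (Slc28a2, a concentrative nucleoside transporter, −7.99) and 1 in KO (Slc43a3, a purine base transporter, 2.29), against 14.6% and 19.8% of all genes. Slc28a3, outside the rule for named genes and named after its values were seen, had weak start peaks in 2 libraries only, with percentiles of 46.8 in control 1 and 9.47 in KO 1, a difference of −18.7. Pyrimidine salvage, the counterpart of the pathway described here, had 12 of 13 genes with a start region, none higher in control (14.6% of all genes) and 4 higher in KO (19.8%), led by Uck2 (2.75), Tk2 (1.18) and Upp2 (0.743). Of the 6 genes of purine receptors and adenosine signalling with a start region in at least 2 libraries, none ranked higher in control and 2 in KO, against the same shares of all genes: Dpp4, a cell surface peptidase that binds adenosine deaminase in humans (5.59), and Entpd1, which breaks down extracellular ATP (0.764). No list had a start region held only in control or only in KO, and no gene of these lists had a difference as low as that of Pnp2.

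**Figure D4:**
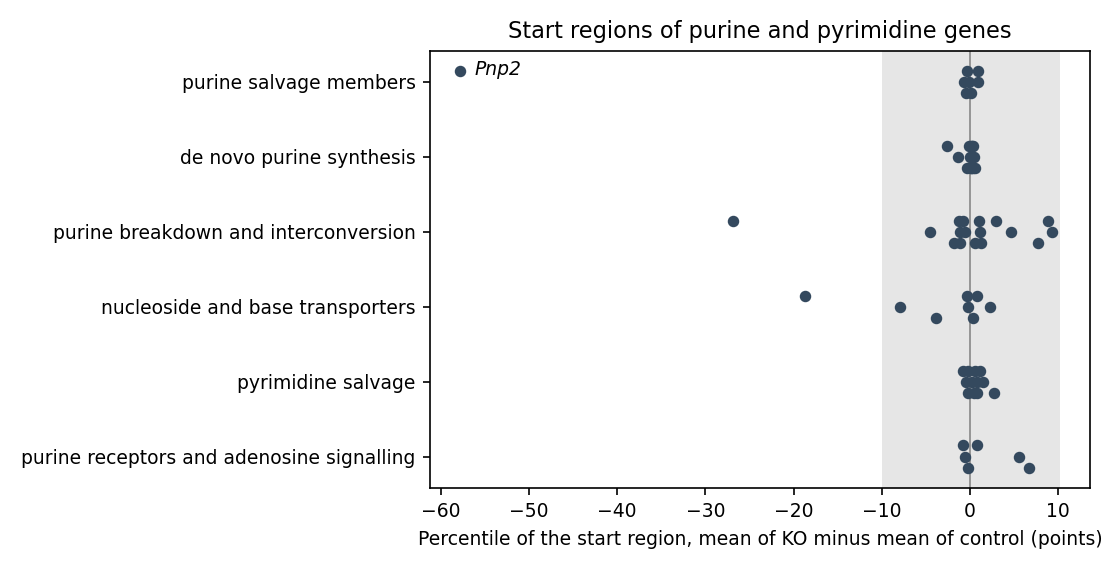
KO minus control difference of the start region percentile, in points, with 1 point per gene and 1 row per gene list; the grey band holds the middle 90% of all genes (−9.96 to 10.2). Pnp2 stands alone at −57.8, and nearly all other genes lie inside the band.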

How the data were processed

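ATAC-Seq libraries of sorted cells, 2 control and 2 KO, were grouped by their titles. The submitters' processing notes name Bowtie2, MACS2 and mm10, with versions and settings not given in the sources used here. The authors called peaks per library and deposited, for each summit, a fold (a ratio to background), a −log10 p, a −log10 q and a score, which was not used. Between 253 and 492 summits of each list are written as positions rather than offsets and were read that way. The study's own test of differential peaks needs reads and could not be run. Regions were built from the autosomes and X in Python 3.11.15 (numpy 2.4.6, pandas 2.3.3, matplotlib 3.10.9). Region calls compared both libraries of a genotype with both of the other, and single values were tested with exact permutation tests. The scripts were tested on simulated data. Named were all 8 members, with the values of their start regions, of regions held in 1 genotype or not overlapping and of the strongest region, Cpt1a, genes within 100000 bp of Pnp and Pnp2, and up to 3 genes per list and direction. The members and lists were chosen with earlier results of these data known. Alternatives were a −log10 q of at least 5, the 100000 strongest summits, lists of equal length (240881 summits) and ranking by fold. Others were windows of 200 bp on each side of a summit, a covered share of at least 0.5 and a gene flank of 1000 bp. Each library was also left out, and the replicate number as a block was added after seeing the data.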

Additional observations from a re-analysis of the deposited data

How the results depend on the processing

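The lists hold no read counts, so depth could not be weighed, and with 2 libraries per genotype the exact permutation test cannot go below 0.333. The Pnp2 difference ran from −83.5 to −56.0 points and the difference of the pair from the other genes from −41.8 to −28.5 under the 7 other settings, always below 0. Leaving out 1 library gave −84.9 to −30.6 and −41.9 to −16.1. Regions only in control (3 of 49) were 1 of 22 with the 100000 strongest summits and 6 of 40 with a covered share of at least 0.5. The shares of all regions were 2.75% and 11.3% in these settings. Regions only in KO (4 of 49) were 0 of 24 at a −log10 q of 5 or more, against 0.807% of all regions. They were 1 of 22 with the 100000 strongest summits, against 3.11%. Regions ranked higher in control (16 of 49) were 7 of 22 with the 100000 strongest summits, against 17.7% of all regions. They were 8 of 48 with lists of equal length, against 14.2%. Those ranked higher in KO (9 of 49) were 1 of 24 at a −log10 q of 5 or more and 4 of 22 with the 100000 strongest summits. The shares of all regions were 5.99% and 21.6% in these settings. With the stricter q, 38.2% of all regions ranked higher in control and 5.99% in KO. The cause of these moves was not tested. Leaving out 1 library left a genotype to 1 list, and a peak in 1 library was then enough for a region to count. The regions counted were 83 to 90 instead of 49, so these counts cannot be set beside those above. They ran from 5 to 18 only in control (4.93% to 20.6% of all regions) and 4 to 20 only in KO (2.8% to 21.5%). Higher in control were 21 to 42 (14.7% to 35.7%), and higher in KO were 10 to 29 (10.6% to 37%). With the replicate number as a block, added after the data were seen, the differences were the same by construction (−57.8 for Pnp2 and −29.1 for the pair), with an exact sign-flip p of 0.5, the smallest 2 pairs allow. Libraries of the same number deviated together with a correlation of 0.0111 across regions. This single value cannot show whether they shared a preparation or a sequencing run, which was not tested. The region counts have no test to pair.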
